A study of Homo sapiens with 40 samples.

Results

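The comparison described here sets 3 T-cell acute lymphoblastic leukaemia lines that carry an active TLX gene against 3 lines of the same disease that carry none. The TLX lines were ALL-SIL, with TLX1, and HPB-ALL and DND-41, with TLX3; the lines without TLX were KARPAS-45, TALL-1 and LOUCY. Sides were assigned from what is known of each line's oncogene and were checked against the TLX1 and TLX3 counts; the labels name the lines and say nothing of TLX. The comparison used 24 of the 40 libraries of the study, 12 from TLX lines and 12 from lines without TLX, and each line had 4 libraries. The line was the unit, so the comparison is of 3 lines against 3, and for each gene it was asked whether the means of all 3 TLX lines lay on one side of the means of all 3 other lines.

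The study addressed the RNA-binding protein QKI in this leukaemia, and the 6 lines were sequenced to relate splicing to the amount of QKI. All 6 lines were untreated T-lymphocyte lines, grown as continuous cultures derived from patients. Medium held 20% serum for HPB-ALL, 10% for ALL-SIL and DND-41, 20% for KARPAS-45 and 10% for TALL-1 and LOUCY, so each side had 1 line in the richer medium. Each line has its own genome and its own other lesions, and with 3 lines a side the presence of a TLX gene cannot be told apart from whatever else those lines share.

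TLX1 and TLX3 are homeobox transcription factors that are silent in normal T-cell development. In T-cell leukaemia they are switched on by translocations: in ALL-SIL TLX1 is joined to the T-cell receptor alpha and delta locus, and in HPB-ALL and DND-41 TLX3 is placed near BCL11B. The proteins are known to act with ETS and RUNX factors, to repress many of the genes they bind, and to hold thymocytes at an early cortical stage in which the T-cell receptor alpha locus is poorly rearranged.

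Library totals were 44093984 to 57886749 counts in the TLX lines and 50141296 to 83952970 counts in the lines without TLX. Levels are CPM, counts as a share of the library scaled to a common total, after TMM scaling, in which each library receives a factor for the make-up of its RNA; the factors ran from 0.948 to 1.169 in TLX lines and from 0.825 to 1.026 in the others, with KARPAS-45 lowest. Mitochondrially encoded transcripts made up 3.78% to 8.89% of the counts in TLX lines and 0.67% to 9.49% in the others, where KARPAS-45 held at most 1.43%. Of the 9 T-cell markers examined, 8 or 9 exceeded 1 CPM in each TLX line and 7 to 9 in each line without TLX, with LOUCY at 7. The fourth replicates of TALL-1, LOUCY and HPB-ALL stood apart from the other 3 libraries of their line for 6, 6 and 5 of the genes reported below, more than any other library.

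The TLX genes matched the sides. TLX1 averaged 392 ± 30.5 CPM in ALL-SIL (SD, n = 4 libraries), 0.00469 CPM in HPB-ALL and 0 in DND-41, against 0.00725 CPM in KARPAS-45, 0 in TALL-1 and 0.334 ± 0.164 CPM in LOUCY. The LOUCY value rests on 70 counts in 4 libraries. TLX3 averaged 225 ± 58.7 CPM in HPB-ALL, 122 ± 16.9 CPM in DND-41 and 0 in ALL-SIL, against 0.0243 CPM in TALL-1 and 0 in KARPAS-45 and LOUCY. Each TLX line therefore held 1 TLX gene, and none of the other lines held either beyond 0.454 CPM in any library. Since each gene is high in at most 2 lines, neither entered the fit across genes. QKI, the gene the study is about, averaged 129.65 CPM in ALL-SIL, 137 CPM in HPB-ALL and 88.2 CPM in DND-41, against 6.79 CPM in KARPAS-45, 162 CPM in TALL-1 and 0 in LOUCY. The sides overlap, because TALL-1 was above all TLX lines, and the log2 fold change of 1.04 ± 2.18 (SE) was not called.

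**Figure D1:**
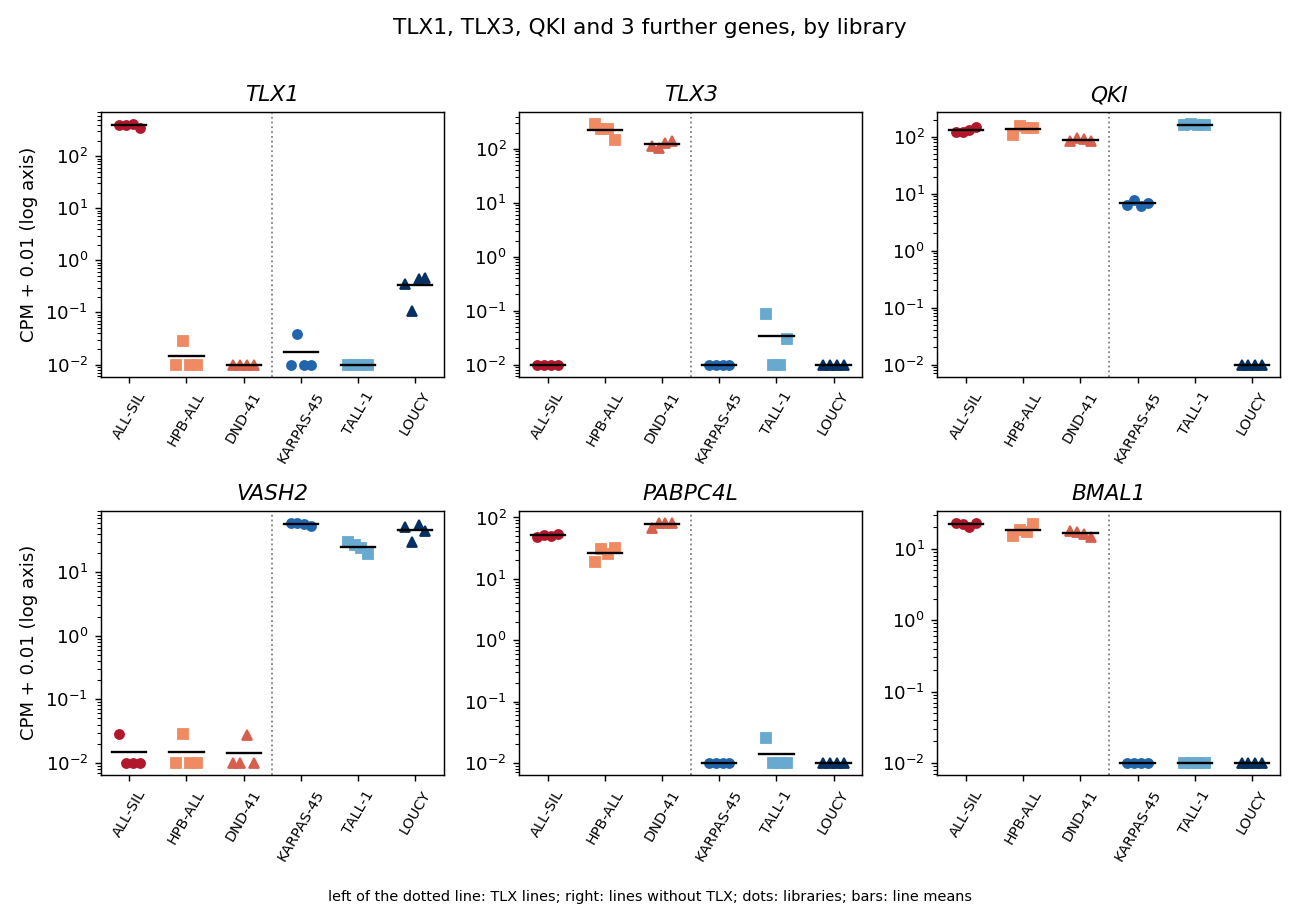
Levels of TLX1, TLX3, QKI, VASH2, PABPC4L and BMAL1 in each of the 24 libraries, as CPM + 0.01 on a log axis, with bars at the line means. TLX1 is high in ALL-SIL (392 CPM), TLX3 in HPB-ALL and DND-41 (225 and 122 CPM), VASH2 in the 3 lines without TLX, and PABPC4L and BMAL1 in the 3 TLX lines.

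Across the 20040 genes that passed the filter on low counts, few passed the main test, which sets the difference between sides against the spread between lines. Tested with edgeR's quasi-likelihood test on the counts summed over each line (Benjamini-Hochberg adjustment, threshold 0.05), no gene was higher in TLX lines (0%) and 1 gene, VASH2, was lower (0.00499%). At an unadjusted p under 0.05 there were 458 genes higher (2.29%) and 712 lower (3.55%), 1170 in all (5.84%). If no gene differed, that threshold alone would give a share of about 0.05. DESeq2 on the same line sums called 171 higher and 178 lower, and limma-voom called 4 higher and 7 lower. The common dispersion of the line sums was 0.9, which corresponds to a coefficient of variation of 0.949 between lines of one side. An exact permutation test of 3 lines against 3 cannot go below p = 0.10, so separation of the line means is given below as a description.

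The line means of 1431 genes (7.14%) lay above all 3 other lines in all 3 TLX lines, and those of 1192 genes (5.95%) lay below. Together these were 2623 genes (13.1%). Lines in random order separate 3 against 3, in one direction or the other, with a probability of 0.10. A separated gene therefore need not be tied to TLX. By library total, without the TMM factors, the split was 2104 above and 746 below. In 69 genes above (0.344%) and 60 below (0.299%) the nearest lines of the 2 sides were at least 2-fold apart, on CPM + 0.5 (129 genes in all, 0.644%). All 12 TLX libraries lay above all 12 other libraries in 224 genes (1.12%) and below them in 257 genes (1.28%). Whole-transcriptome profiles sorted the lines by TLX only in part. Spearman correlations across the 20040 genes were 0.856 to 0.892 between TLX lines and 0.834 to 0.847 between lines without TLX. Between a TLX line and a line without one they were 0.828 to 0.884. Each TLX line was closest to another TLX line: ALL-SIL and DND-41 to each other (0.892) and HPB-ALL to DND-41 (0.874). Of the lines without TLX, KARPAS-45 was closest to TALL-1 (0.847). TALL-1 was closest to DND-41 (0.884), and LOUCY to HPB-ALL and DND-41 (0.854 each). These correlations are across genes, which are not independent replicates. DND-41 and TALL-1, of different sides, were closer (0.884) than the TLX3 lines HPB-ALL and DND-41 (0.874).

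**Figure D2:**
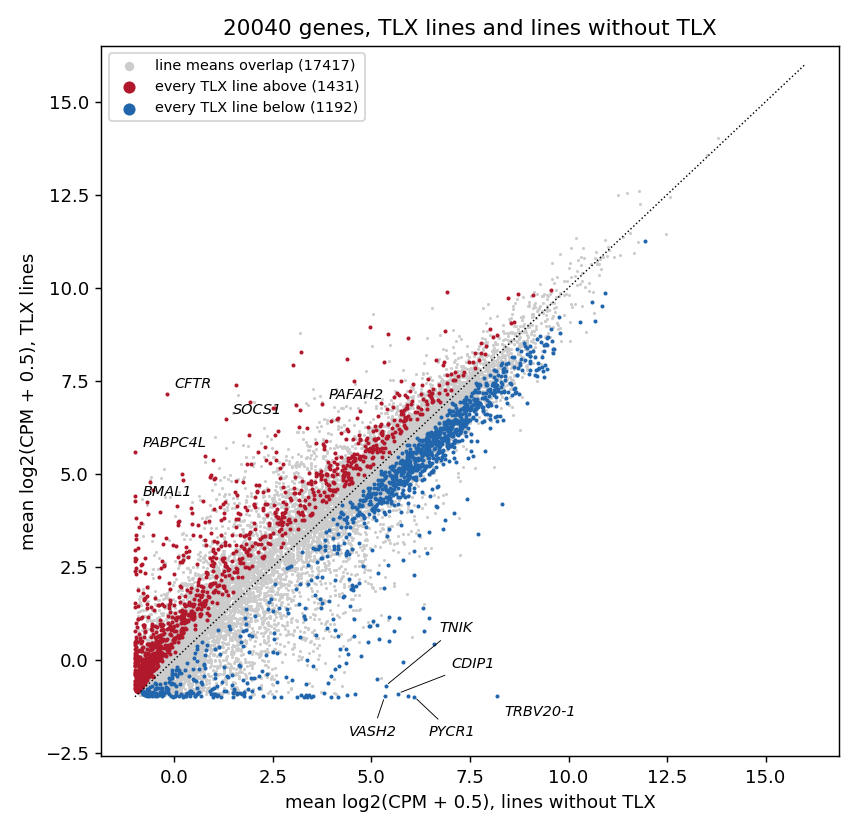
Mean log2(CPM + 0.5) of the 3 TLX lines against that of the 3 lines without TLX for the 20040 genes tested. The 1431 genes with every TLX line above and the 1192 with every TLX line below are coloured, and the labelled genes on the left and lower edges are near 0 on one side.

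A small group of genes was silent on one side and active on the other. Silent means at most 3 counts in each of the 12 libraries of a side, and active means at least 1 CPM in every line of the other side; this definition was chosen after values had been seen. By it 11 genes were off in TLX lines (0.0549% of the genes tested) and 8 were on in TLX lines and off in the others (0.0399%). The 11 were VASH2, PYCR1, ACAA2, CXADR, GPC1, FAM20C, DGAT2, IFT172, GAL3ST3, LINC03015 and the receptor segment TRBV20-1, and the 8 included PABPC4L, BMAL1, STX7, PRDM8, FAM106A and LINC01036.

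**Figure D3:**
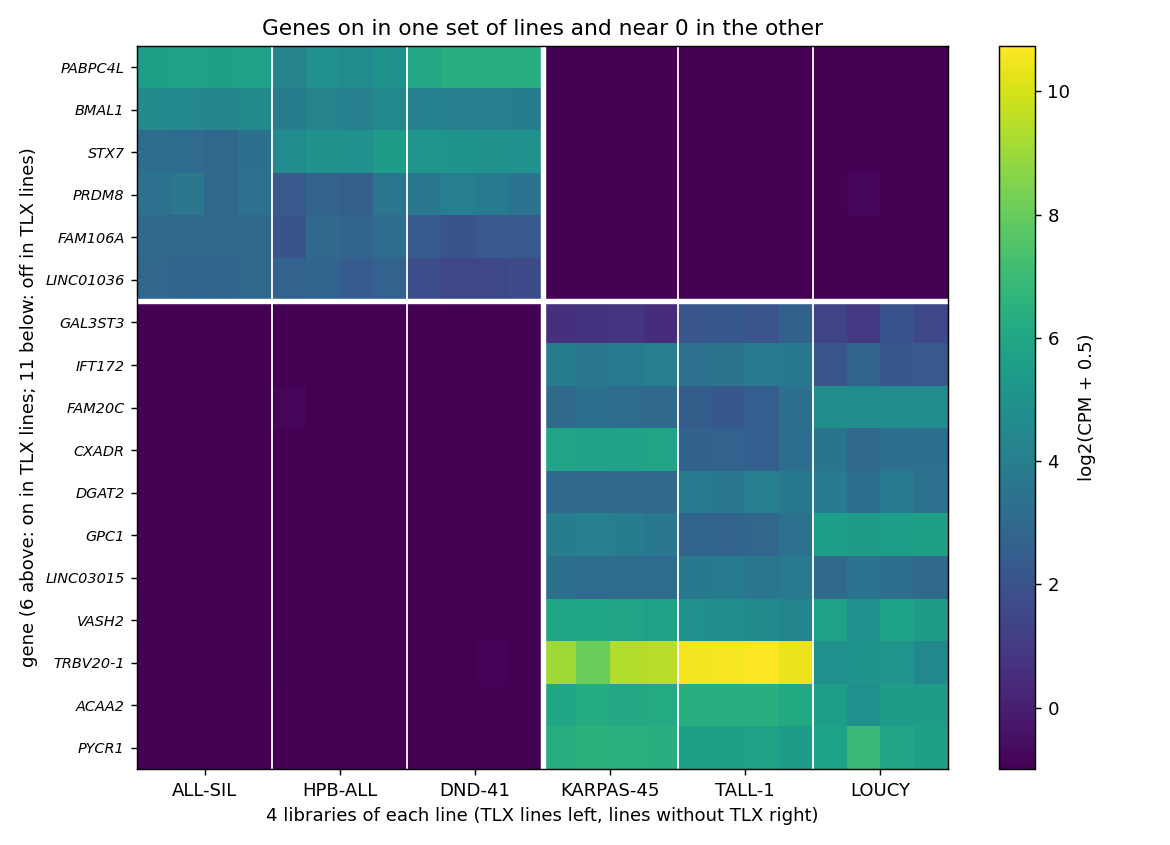
Levels of 6 of the genes on in TLX lines and the 11 genes off in TLX lines, as log2(CPM + 0.5), in the 4 libraries of each line. The TLX lines are the left 12 columns; the sides do not overlap in any of the 17 genes, since this pattern chose them.

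Start-site regions are shown for a pair of genes off in TLX lines, VASH2 and ACAA2, and a pair that is on, BMAL1 and PABPC4L, because these are the genes where a side was silent. Each runs from 250 bases before to 50 bases after the RefSeq start (GRCh38.p14): chr1:212950291-212950590 on the plus strand, chr18:49813484-49813783 on the minus strand, chr11:13277540-13277839 on the plus strand and chr4:134201740-134202039 on the minus strand. Capitals mark the dinucleotide CG, the site of DNA methylation in human cells, which reads the same on both strands.
VASH2: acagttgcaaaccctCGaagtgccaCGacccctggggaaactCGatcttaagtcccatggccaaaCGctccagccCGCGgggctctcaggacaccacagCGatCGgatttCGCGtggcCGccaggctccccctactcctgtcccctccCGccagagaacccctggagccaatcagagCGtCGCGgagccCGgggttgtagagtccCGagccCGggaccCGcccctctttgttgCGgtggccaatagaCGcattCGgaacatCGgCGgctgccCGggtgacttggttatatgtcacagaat
ACAA2: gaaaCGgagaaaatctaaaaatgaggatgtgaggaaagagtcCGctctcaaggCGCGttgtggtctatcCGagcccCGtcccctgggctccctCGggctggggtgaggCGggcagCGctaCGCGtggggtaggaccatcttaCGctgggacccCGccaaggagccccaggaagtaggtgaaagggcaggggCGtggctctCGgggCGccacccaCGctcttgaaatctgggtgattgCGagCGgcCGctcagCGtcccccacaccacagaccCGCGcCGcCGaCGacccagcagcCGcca
BMAL1: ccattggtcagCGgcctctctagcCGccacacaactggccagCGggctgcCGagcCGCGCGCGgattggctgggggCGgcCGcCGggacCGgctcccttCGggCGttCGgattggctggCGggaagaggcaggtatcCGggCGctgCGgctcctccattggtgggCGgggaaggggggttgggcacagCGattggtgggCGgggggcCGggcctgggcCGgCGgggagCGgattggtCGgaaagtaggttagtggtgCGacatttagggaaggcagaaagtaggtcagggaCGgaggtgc
PABPC4L: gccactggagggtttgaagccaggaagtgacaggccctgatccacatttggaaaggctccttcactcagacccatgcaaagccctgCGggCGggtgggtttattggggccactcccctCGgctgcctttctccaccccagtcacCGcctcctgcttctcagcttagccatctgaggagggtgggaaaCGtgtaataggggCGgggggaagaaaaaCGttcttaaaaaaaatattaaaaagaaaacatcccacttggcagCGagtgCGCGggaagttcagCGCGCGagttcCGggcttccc
VASH2 holds 25 CG, ACAA2 27, BMAL1 29 and PABPC4L 14. RefSeq windows were matched for 10 of the 19 genes. Among the 6 matched genes off in TLX lines the count of CG ran from 25 to 45 (median 28), and all 6 windows held at least 20. Among the 4 matched genes on in TLX lines it ran from 14 to 29 (median 17.5), and 2 of the 4 windows held at least 20 (50%). Of 11807 matched windows of genes tested, 67.4% held at least 20 CG (median 25). These counts describe the sequence, and methylation was not measured.

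VASH2, at chr1:212950520-212992037 on the plus strand, encodes vasohibin 2, an enzyme that removes the terminal tyrosine of alpha-tubulin. In TLX lines it had 3 counts in all, 1 in each line, against 30511 counts in the lines without TLX. The lowest, median and highest library were 0, 0 and 0.0188 CPM in TLX lines, against 19.3, 47.6 and 59.6 CPM in the lines without TLX. Every TLX library was at or next to 0 and every other library was above 19 CPM. Line means were 0.00464 CPM in ALL-SIL, 0.00469 in HPB-ALL and 0.00428 in DND-41, against 57.1 ± 3.30 in KARPAS-45, 24.8 ± 4.18 in TALL-1 and 45.1 ± 11.6 in LOUCY (SD, n = 4 libraries). VASH2 fell in TLX lines by 13.00 on the log2 scale (SE 0.76, adjusted p = 0.0313, edgeR, 3 lines a side). The adjusted p was 1.46e-32 with DESeq2 and 0.0351 with limma-voom. The call was lost with any 1 line left out (adjusted p = 0.0550 to 0.647), with serum as a term (0.180), and without ALL-SIL replicate 1 (0.0690), HPB-ALL replicate 2 (0.0783) or DND-41 replicate 3 (0.0773). Each of those 3 libraries holds the single VASH2 count of its line, so the level remained at or near 0 while the call was lost.

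Several genes of metabolism were silent in the TLX lines. PYCR1, at chr17:81932384-81942412 on the minus strand, encodes the mitochondrial enzyme of the last step of proline synthesis. It had 1 count in the 12 TLX libraries, with the highest library at 0.0199 CPM, against a lowest, median and highest library of 43.3, 57.2 and 122.7 CPM in the lines without TLX. No TLX library approached the others, and the adjusted p was 0.0902 (edgeR; 0.0222 with limma-voom). The highest of those values came from LOUCY replicate 4; the other 3 LOUCY libraries held 50.2 to 58.2 CPM. ACAA2, at chr18:49782167-49813960 on the minus strand, encodes the thiolase that ends each round of fatty acid oxidation in mitochondria. It averaged 0 CPM in ALL-SIL, 0.00964 in HPB-ALL and 0.00901 in DND-41, against 68.6 in KARPAS-45, 78.9 in TALL-1 and 40.97 in LOUCY (adjusted p = 0.0993, edgeR). DGAT2, an enzyme of triglyceride synthesis, had 1 count in TLX lines and 7.37 to 13.96 CPM in the lines without TLX (adjusted p = 0.364, edgeR).

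A second set encodes proteins of the cell surface and the secretory path. CXADR, a cell-junction protein that serves as receptor for coxsackieviruses and adenoviruses, had no count in any TLX library and 55.8, 6.44 and 9.37 CPM in KARPAS-45, TALL-1 and LOUCY. Against the mean of those lines it was at least 365-fold lower in TLX lines, taking a floor of 3 counts in each library. TALL-1 and LOUCY alone would give lower bounds. GPC1, a heparan sulfate proteoglycan, also had no count in TLX lines. It held 14.6, 7.39 and 47.3 CPM in KARPAS-45, TALL-1 and LOUCY (at least 353-fold lower in TLX lines than their mean). FAM20C, a kinase of secreted proteins, had 5 counts in TLX lines, against 8.32, 5.92 and 25.8 CPM in KARPAS-45, TALL-1 and LOUCY. GAL3ST3, a sulfotransferase of the Golgi, had 1 count in TLX lines, against 1.08 to 4.43 CPM. None of these passed edgeR's test (adjusted p = 0.524 to 0.627).

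The remaining genes off in TLX lines were of other kinds. IFT172, a component of the transport machinery of cilia, and LINC03015, a long non-coding RNA, had no count in TLX lines. They held 4.70 to 14.2 and 8.40 to 13.0 CPM in the lines without TLX. Against the mean of those lines they were at least 157-fold and at least 154-fold lower in TLX lines (adjusted p = 0.498 and 0.396, edgeR). TRBV20-1 is a variable segment of the T-cell receptor beta locus, of which a clone normally uses one. It had 3 counts in TLX lines, against 545, 1522 and 29.7 CPM in KARPAS-45, TALL-1 and LOUCY. How much of such a segment a line makes depends on the rearrangement it carries. Genes or pseudogenes on the opposite strand overlap IFT172, GPC1, PYCR1, DGAT2, FAM20C and CXADR. Reads could have been shared there, since the strand setting of the counting is not given. On the same strand a protein-coding entry overlaps ACAA2, and MYADML2 overlaps PYCR1, so reads could be shared there under any strand setting.

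Outside this definition, CDIP1 came closest to VASH2 in the test. CDIP1, at chr16:4510675-4538828 on the minus strand, encodes a pro-apoptotic protein. It averaged 0.0564, 0.0188 and 0.0186 CPM in ALL-SIL, HPB-ALL and DND-41, against 71.2, 37.1 and 47.9 CPM in KARPAS-45, TALL-1 and LOUCY, with a log2 fold change of -10.67 ± 0.89 (adjusted p = 0.0902, edgeR; 0.0351 with limma-voom). No TLX library exceeded 0.0928 CPM, and no other library was below 34.5 CPM. Wide gaps in the same direction were found in TNIK, a kinase of Wnt signalling, at 0 to 0.362 CPM in TLX lines against 24.6 to 88.1 CPM, and in TSPAN5, a tetraspanin, at 0.0145 to 2.63 CPM against 51.8 to 62.8 CPM. CCL28, a chemokine, was at 0.00855 to 0.797 CPM in TLX lines against 19.4 to 65.2 CPM, TTYH1, a membrane protein, at 0.00455 to 0.0759 CPM against 7.99 to 34.6 CPM, and NECTIN2, an adhesion molecule and ligand of lymphocyte receptors, at 0.0799 to 0.427 CPM against 8.90 to 22.9 CPM. IDI1, an isomerase of cholesterol synthesis, differed at a high level in all lines: 101, 89.8 and 96.0 CPM in ALL-SIL, HPB-ALL and DND-41, against 294, 219 and 259 CPM in KARPAS-45, TALL-1 and LOUCY (log2 fold change -1.46 ± 0.25). None of these 6 passed (adjusted p = 0.580 to 0.820, edgeR), and antisense genes overlap IDI1, NECTIN2, TSPAN5 and TTYH1.

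Among genes on in TLX lines, PABPC4L had the widest gap. PABPC4L, at chr4:134196333-134201748 on the minus strand, encodes a relative of the cytoplasmic poly(A)-binding proteins. Its lowest, median and highest library were 18.7, 51.2 and 82.2 CPM in TLX lines, against 0, 0 and 0.0155 CPM in the lines without TLX, which held 1 count in all. Every TLX line lay far above every other line: 51.1 ± 2.22 CPM in ALL-SIL, 26.5 ± 5.86 in HPB-ALL and 78.1 ± 7.14 in DND-41, against 0 in KARPAS-45, 0.00388 in TALL-1 and 0 in LOUCY (SD, n = 4 libraries). The gene was not called (log2 fold change 14.65 ± 1.37, adjusted p = 0.109, edgeR; 0.0490 with limma-voom).

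BMAL1, at chr11:13276652-13387266 on the plus strand, encodes the transcription factor that pairs with CLOCK at the core of the circadian oscillator. It averaged 21.9 ± 1.35 CPM in ALL-SIL, 18.1 ± 2.93 in HPB-ALL and 16.3 ± 1.28 in DND-41 (SD, n = 4 libraries), against 0 counts in each of the 12 libraries of KARPAS-45, TALL-1 and LOUCY. The mean of the TLX lines was at least 303-fold above the floor of 3 counts in each library (adjusted p = 0.269, edgeR, and 0.0222 with limma-voom). STX7, at chr6:132445867-132513198 on the minus strand, encodes a syntaxin of late endosomes. Its line means were 8.32, 32.7 and 32.4 CPM in ALL-SIL, HPB-ALL and DND-41, against 1 count in all 12 other libraries (adjusted p = 0.269, edgeR). The TLX1 line ALL-SIL was the lowest of the TLX lines for STX7 and the highest for BMAL1.

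Further genes on in TLX lines were of other kinds. PRDM8, a zinc finger protein of the PRDM family, averaged 9.90, 6.79 and 13.5 CPM in ALL-SIL, HPB-ALL and DND-41, against 4 counts in all in the lines without TLX. FAM106A lies among duplicated pseudogenes and is uncertain for that reason. It averaged 4.18 to 7.29 CPM in TLX lines and had no count in the others (at least 96.7-fold higher on average). LINC01036, a long non-coding RNA, averaged 2.65 to 6.796 CPM in TLX lines and had 1 count in the others. None passed edgeR's test (adjusted p = 0.475 to 0.642). An antisense gene overlaps PRDM8, so reads could have been shared there.

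Some genes were high in TLX lines and low but present in the others. CFTR, at chr7:117465784-117715971 on the plus strand, encodes a chloride channel of epithelia. It averaged 506 ± 51.7 CPM in ALL-SIL, 90.5 ± 35.7 in HPB-ALL and 60.8 ± 13.98 in DND-41, against 0.776 ± 0.0999 in KARPAS-45, 0.225 ± 0.0520 in TALL-1 and 0.238 ± 0.0418 in LOUCY (SD, n = 4 libraries). The lowest TLX library held 41.8 CPM and the highest other library 0.860 CPM. The log2 fold change of 9.03 ± 1.31 was not called (adjusted p = 0.498, edgeR). CTTNBP2 and antisense genes overlap CFTR on the opposite strand, so reads could have been shared there. PAFAH2, an enzyme that breaks down platelet-activating factor and oxidised phospholipids, averaged 85.7, 121 and 152 CPM in ALL-SIL, HPB-ALL and DND-41, against 10.5, 8.82 and 22.7 CPM in KARPAS-45, TALL-1 and LOUCY (log2 fold change 3.07 ± 0.49, adjusted p = 0.580, edgeR). LOUCY replicate 4 held 37.7 CPM, and the other LOUCY libraries held 16.9 to 18.3 CPM.

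Further genes with a wide gap above were of varied function. BMPR1B, a receptor of bone morphogenetic proteins, averaged 6.49, 3.43 and 60.1 CPM in ALL-SIL, HPB-ALL and DND-41, against 0.00364 to 0.106 CPM in the lines without TLX. KLHL4, a Kelch-like protein, averaged 21.0 to 25.7 CPM in TLX lines against 0.0114 to 0.654 CPM, although its HPB-ALL mean rests on replicate 4 at 55.2 CPM, the other 3 libraries holding 8.54 to 12.8 CPM, and its ALL-SIL libraries vary as much as their mean (25.7 ± 27.2 CPM, SD, n = 4). UEVLD, a protein with a ubiquitin-conjugating-like domain, averaged 10.6 to 18.5 CPM in TLX lines against 0.00486 to 0.269 CPM. DNAJC15, a mitochondrial co-chaperone, averaged 2.699, 40.6 and 19.8 CPM in ALL-SIL, HPB-ALL and DND-41 against 0 to 0.0296 CPM, and the long non-coding DLGAP1-AS1 4.43 to 6.39 CPM in TLX lines against 0.162 to 0.488 CPM. RGPD3, a member of a family of near-identical RANBP2 copies, averaged 81.3 to 204 CPM in TLX lines against 0.746 to 8.64 CPM, and the pseudogene TTC3P1 13.6 to 15.8 CPM against 0.173 to 1.67 CPM. Reads of RGPD3 and TTC3P1 may belong to their copies. The adjusted p of these 7 genes was 0.642 to 0.820 (edgeR).

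Genes tied to TLX biology were examined in lists whose members were chosen with earlier results of these data known. Of 32 tested partners of TLX proteins and T-lineage transcription factors, none passed edgeR's test; 1 had every TLX line above and 2 every TLX line below, against 7.14% and 5.95% of all genes tested, and the median log2 fold change was -0.34 against -0.0049 over all genes tested. ETS2, a member of the ETS family, was the one above: 310.2, 816 and 250.1 CPM in ALL-SIL, HPB-ALL and DND-41, against 99.7, 21.3 and 101 CPM in KARPAS-45, TALL-1 and LOUCY (log2 fold change 2.59 ± 0.75, adjusted p = 0.820, edgeR). All 12 TLX libraries lay above all others for ETS2, the lowest at 202 CPM and the highest of the others at 106 CPM. MYB, a transcription factor of early haematopoiesis, averaged 337 to 357 CPM in TLX lines and 496 to 571 CPM in the lines without TLX, where TALL-1 replicate 4 held 311 CPM and the other TALL-1 libraries 550.0 CPM or more. TLE4, a Groucho-type corepressor, averaged 0, 0.611 and 19.4 CPM in ALL-SIL, HPB-ALL and DND-41, against 36.7, 32.6 and 66.9 CPM in KARPAS-45, TALL-1 and LOUCY. RUNX1, often described as antagonised by TLX proteins, did not separate the sides: 44.4, 80.4 and 225 CPM in ALL-SIL, HPB-ALL and DND-41, against 360.0, 193 and 240.05 CPM in KARPAS-45, TALL-1 and LOUCY.

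Of 14 tested genes tied to TLX proteins in other work, none passed the test, and 1 was separated below and none above, against 5.95% and 7.14% of all genes tested. CHEK1, a kinase of the DNA damage checkpoint, averaged 73.3 to 93.0 CPM in TLX lines and 101 to 166 CPM in the others (log2 fold change -0.63 ± 0.29). BMI1, a Polycomb protein, averaged 74.1, 55.5 and 52.9 CPM in ALL-SIL, HPB-ALL and DND-41, against 408, 32.6 and 166 CPM in KARPAS-45, TALL-1 and LOUCY, so the sides overlap. On the same strand STT3A overlaps CHEK1 and COMMD3-BMI1 overlaps BMI1, so reads could be shared there under any strand setting. Of a list of 9 that holds TLX1, TLX2, TLX3 and genes near them, 4 were tested (TLX2, KAZALD1, NPM1 and FGF18), and none was separated. All 11 tested HOX genes overlapped between the sides; HOXA genes had no count in TALL-1, were under 1 CPM in KARPAS-45 and in most cases were highest in LOUCY, with HOXA5 at 3.74 to 5.48 CPM in TLX lines, against 0.00752 CPM in KARPAS-45, 0 in TALL-1 and 21.5 CPM in LOUCY.

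Of 23 tested genes of cortical thymocytes, none passed the test, 1 was separated above and none below, against 7.14% and 5.95% of all genes tested, and the median log2 fold change was 1.14. CD1B, which presents lipids to T cells and marks cortical thymocytes, averaged 9.54, 692 and 653 CPM in ALL-SIL, HPB-ALL and DND-41, against 6.12, 7.27 and 0.00490 CPM in KARPAS-45, TALL-1 and LOUCY. Its sides are separated by little, because ALL-SIL lay just above TALL-1. CD1E, of the same family, averaged 2.27, 1135 and 59.2 CPM in ALL-SIL, HPB-ALL and DND-41, against 10.7, 3.41 and 0 CPM in KARPAS-45, TALL-1 and LOUCY, and overlaps. RAG1, of the recombinase that joins receptor segments, averaged 3.30, 54.6 and 752 CPM in ALL-SIL, HPB-ALL and DND-41, against 26.3, 0.0908 and 2.65 CPM in KARPAS-45, TALL-1 and LOUCY, and overlaps as well. Among 9 tested genes of immature T cells and progenitors the one separated gene, SPINK2, averaged 0 to 0.0362 CPM in TLX lines and 0.372, 0.361 and 13.1 CPM in KARPAS-45, TALL-1 and LOUCY.

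Of 25 tested genes for the T-cell receptor and the signals it sends, none passed the test, 1 was separated above and 1 below, against 7.14% and 5.95% of all genes tested. PRKCQ, protein kinase C theta, averaged 21.3 to 42.9 CPM in TLX lines and 44.2 to 131 CPM in the others. The receptor alpha constant gene TRAC averaged 0.104, 1109 and 0.0274 CPM in ALL-SIL, HPB-ALL and DND-41, against 98.9, 179 and 199.97 CPM in KARPAS-45, TALL-1 and LOUCY. TRAC was thus near 0 in ALL-SIL and DND-41 and highest in HPB-ALL, and it does not separate the sides. Among 21 tested NOTCH receptors and targets the one separated gene, NOTCH2, averaged 120.2, 193 and 103 CPM in ALL-SIL, HPB-ALL and DND-41, against 27.7, 53.8 and 71.6 CPM in KARPAS-45, TALL-1 and LOUCY (log2 fold change 1.41, adjusted p = 0.820, edgeR).

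Feedback genes of cytokine signalling were high in ALL-SIL and DND-41. Cytokine receptors signal through JAK kinases and STAT factors, which switch on their own inhibitors, among them SOCS1 and CISH, and the kinase PIM1. Of 25 tested genes of this group none passed the test, 4 were separated above and 2 below, against 7.14% and 5.95% of all genes tested, and the median log2 fold change was 0.13. SOCS1 averaged 171 ± 16.6, 20.3 ± 3.96 and 189 ± 13.96 CPM in ALL-SIL, HPB-ALL and DND-41, against 0.189 ± 0.0704, 3.31 ± 0.318 and 5.23 ± 0.708 CPM in KARPAS-45, TALL-1 and LOUCY (SD, n = 4 libraries). No library of one side reached the other: the lowest TLX library held 16.3 CPM and the highest other library 6.23 CPM. The log2 fold change of 5.44 was not called (adjusted p = 0.820, edgeR). On the opposite strand RMI2 overlaps SOCS1 and MAPKAPK3 overlaps CISH, so reads could have been shared there. PIM1 averaged 415, 56.2 and 856 CPM in ALL-SIL, HPB-ALL and DND-41, against 6.997, 51.8 and 23.1 CPM in KARPAS-45, TALL-1 and LOUCY, and HPB-ALL lay only just above TALL-1. The PIM1 value of TALL-1 includes replicate 4 at 72.5 CPM, the other 3 holding 44.0 to 46.2 CPM.

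CISH showed the split within the TLX lines most plainly. It averaged 723, 2.07 and 967 CPM in ALL-SIL, HPB-ALL and DND-41, against 4.73, 2.08 and 4.36 CPM in KARPAS-45, TALL-1 and LOUCY. HPB-ALL, a TLX3 line like DND-41, lay at the level of TALL-1. STAT4, which carries signals of interleukin 12, was likewise high in ALL-SIL and DND-41 only, at 31.5, 0.599 and 32.002 CPM in ALL-SIL, HPB-ALL and DND-41, against 0.214, 0.479 and 1.64 CPM in KARPAS-45, TALL-1 and LOUCY. The shared chain IL2RG and the kinase JAK3 were the other members above, each by a narrow margin: JAK3 averaged 21.6 CPM in DND-41, the lowest TLX line, against 20.8 CPM in TALL-1, the highest of the others. JAK1, the kinase of many cytokine receptors, averaged 92.0 to 115 CPM in TLX lines and 139 to 267 CPM in the others. RAVER2 overlaps JAK1 on the opposite strand, and a protein-coding entry overlaps IL2RG on the same strand, so reads could have been shared.

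**Figure D4:**
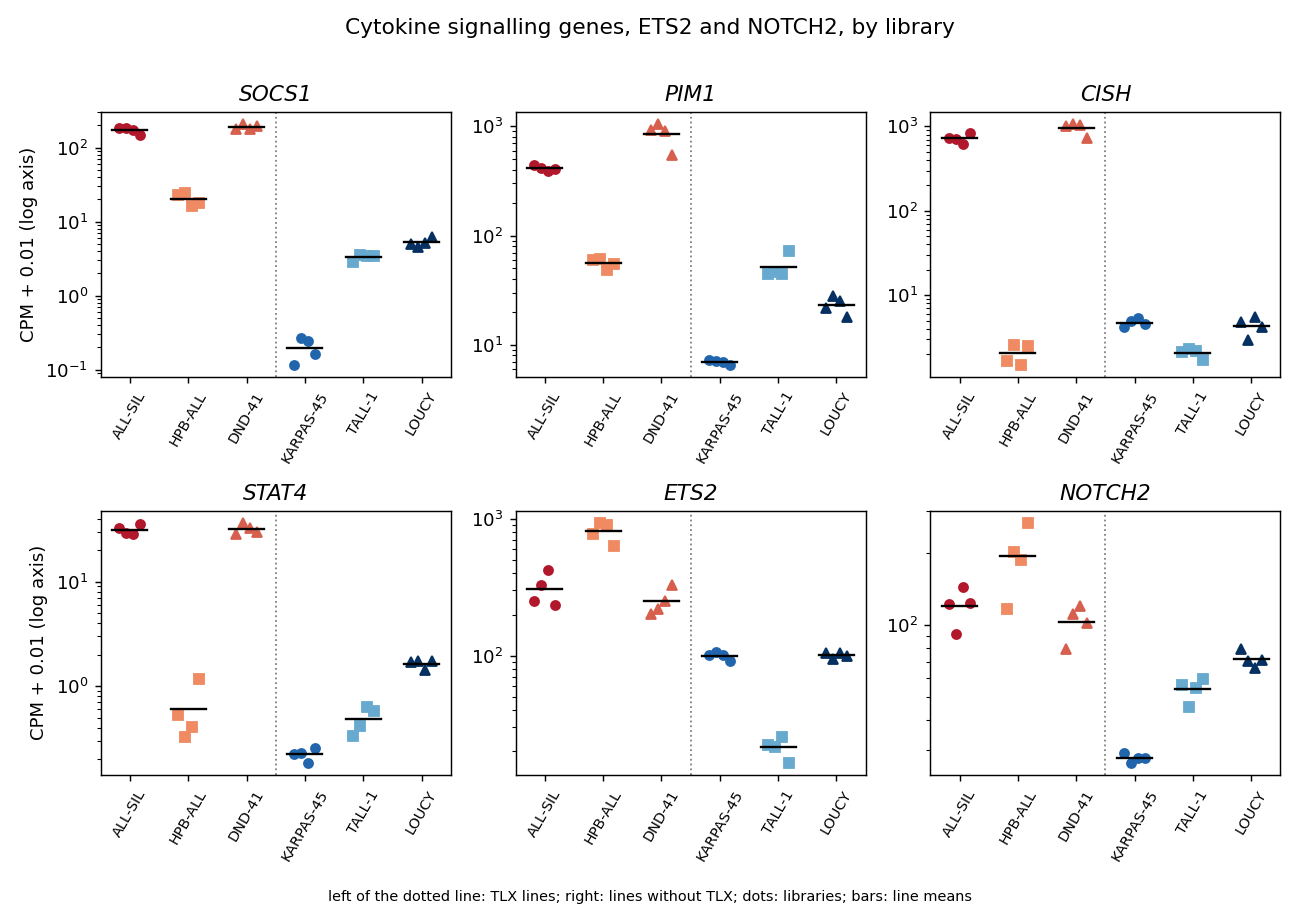
SOCS1, PIM1, CISH, STAT4, ETS2 and NOTCH2 in each of the 24 libraries, as CPM + 0.01 on a log axis, with bars at the line means. SOCS1, ETS2 and, narrowly, NOTCH2 are higher in every TLX library than in any other library; CISH and STAT4 are high in ALL-SIL and DND-41 (723 and 967 CPM for CISH) and low in HPB-ALL (2.07 CPM).

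Of 28 tested tumour suppressor and chromatin genes of this leukaemia none passed the test. Of them 1 was separated above and 5 below, against 7.14% and 5.95% of all genes tested, with 2 below over all 12 libraries of each side and 0 with a 2-fold gap, and the median log2 fold change was -0.28. TET1, which oxidises methylated cytosine, averaged 14.8, 22.6 and 17.3 CPM in ALL-SIL, HPB-ALL and DND-41, against 119, 37.4 and 48.9 CPM in KARPAS-45, TALL-1 and LOUCY (log2 fold change -1.94), without overlap between libraries. CTCF, the insulator protein, averaged 80.1 to 136 CPM in TLX lines and 172 to 353 CPM in the others, and CDKN2C, an inhibitor of CDK4 and CDK6, 170 to 217 CPM in TLX lines and 257 to 372 CPM in the others. EED, of Polycomb complex 2, was also below, at 22.4 to 28.8 CPM in TLX lines and 34.0 to 37.0 CPM in the others. FBXW7, a ubiquitin ligase subunit that degrades NOTCH1 and MYC, was the one above, at 52.5 to 126 CPM in TLX lines and 27.0 to 47.2 CPM in the others.

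Genes of S, G2 and M phase were the list with the most members on one side. Of 35 tested none passed edgeR's test; 12 had every TLX line below every other line and 1 every TLX line above, against 5.95% and 7.14% of all genes tested, and the median log2 fold change was -0.95 against -0.0049 over all genes tested. CDK1, the kinase of mitotic entry, averaged 115 ± 16.8, 144 ± 19.2 and 155 ± 8.68 CPM in ALL-SIL, HPB-ALL and DND-41, against 338 ± 14.7, 313 ± 87.9 and 195 ± 58.1 CPM in KARPAS-45, TALL-1 and LOUCY (SD, n = 4 libraries). The B-type cyclins went the same way: CCNB1 averaged 84.3 to 106 CPM in TLX lines and 137 to 321 CPM in the others, and CCNB2 50.8 to 78.9 CPM in TLX lines and 108 to 192 CPM in the others. RRM1, of the enzyme that makes deoxyribonucleotides, averaged 68.7, 69.6 and 87.9 CPM in ALL-SIL, HPB-ALL and DND-41, against 694, 167 and 148 CPM in KARPAS-45, TALL-1 and LOUCY. CDC6, a licensing factor of replication origins, averaged 59.95 to 74.3 CPM in TLX lines and 96.0 to 202 CPM in the others. The other 7 below were PLK1, BUB1, TOP2A, AURKA, PCNA, CCNA2 and CENPF.

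KARPAS-45 was the highest line in each of these 12 genes, and the margin to LOUCY or TALL-1 was often small: PCNA, the sliding clamp of replication, averaged 287 to 333 CPM in TLX lines and 349.7 CPM in LOUCY. No member had a gap of 2-fold between the sides, and for 1 of the 35 all 12 TLX libraries lay below all 12 others. Leaving out a line can only keep or raise a number below, since fewer line means have to be separated. Over all genes tested the number below was 1192 with every line and 1871 without KARPAS-45. For this list it was again 12 without KARPAS-45, and 12 to 20 with another line left out. LOUCY replicate 4 was low for these genes, with CCNB1 at 60.2 CPM against 188 to 193 CPM in the other LOUCY libraries and CDK1 at 109 CPM against 218 to 234 CPM. Without that library the number below was 13, and by library total, without TMM factors, it was 9. The single member above, NUSAP1, was listed at under 0.583 CPM in every line. A protein-coding entry overlaps NUSAP1 on the same strand, so its reads may have been counted elsewhere, which was not tested. How fast each culture was growing was not tested, and the part of the low KARPAS-45 scaling factor in these values was not tested beyond the counts given. Replication genes of the MCM family overlapped between the sides, because ALL-SIL held more than DND-41 and HPB-ALL: MCM2, of the helicase of replication forks, averaged 364, 91.3 and 124 CPM in ALL-SIL, HPB-ALL and DND-41, against 710.4, 203 and 382 CPM in KARPAS-45, TALL-1 and LOUCY.

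**Figure D5:**
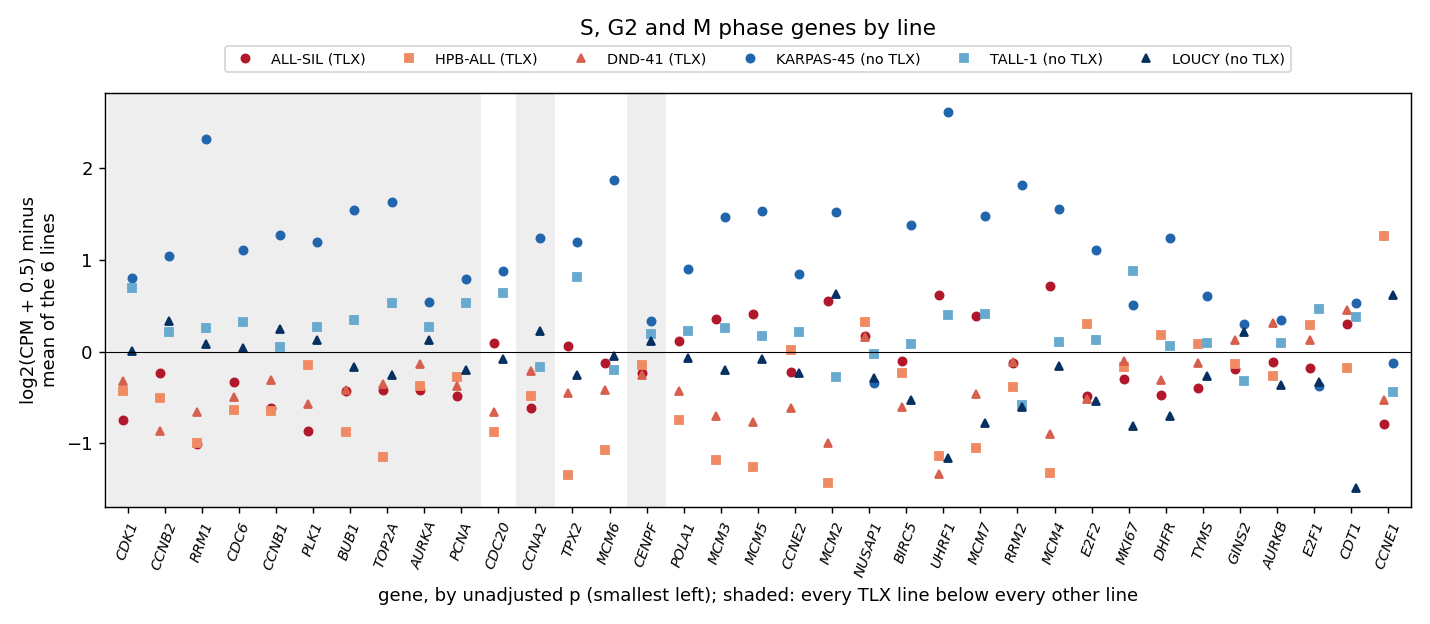
The 35 genes of S, G2 and M phase in the 6 lines, as log2(CPM + 0.5) minus the mean of the 6 lines, ordered by unadjusted p. In the 12 shaded genes every TLX line is below every other line; KARPAS-45 is the highest line in all 12.

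The shares of all genes tested, 7.14% above and 5.95% below, stand beside each of the following counts. Of 7 tested transcription factors activated in other T-cell leukaemias, MYB was below, as described, and TAL2, listed at under 0.5 CPM in every line, was above. The 35 cytoplasmic ribosomal protein genes and the 13 mitochondrially encoded messenger RNAs had no separated member, with median log2 fold changes of 0.03 and 0.62. Of 22 tested splicing regulators 3 had every TLX line below and none above, against 5.95% and 7.14% of all genes tested: RBFOX2, a regulator of alternative exons, averaged 5.29 to 7.98 CPM in TLX lines and 14.8 to 23.8 CPM in the others (log2 fold change -1.65, adjusted p = 0.820, edgeR). SF1, which recognises the branch point, averaged 301 to 393 CPM in TLX lines and 419 to 600.3 CPM in the others, and MBNL2, of the muscleblind family, 0, 0 and 12.4 CPM in ALL-SIL, HPB-ALL and DND-41, against 31.6 to 45.4 CPM in the others. Of 12 tested MHC genes TAPBP, the tapasin gene of peptide loading, was the one separated, at 147 to 184 CPM in TLX lines and 95.9 to 119 CPM in the others. Of 26 tested adhesion and chemokine receptor genes the integrin chain ITGB1 was the one separated, at 179 to 214 CPM in TLX lines and 251 to 521 CPM in the others. Of 25 tested kinases and growth-signalling genes 2 had every TLX line below, ABL2 among them. In each of these groups no member passed edgeR's test.

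Markers of other blood and tissue cells overlapped between the sides when summed. The summed level of 12 B-cell markers was 43.2 to 2307 CPM over the TLX libraries and 10.9 to 2928 CPM over the others, high in DND-41 and LOUCY, with MS4A1 and CD22 at 0 in DND-41 and BLNK at 0 in LOUCY. The 12 myeloid markers summed to 0.569 to 34.6 CPM in TLX libraries and 0.973 to 110.2 CPM in the others, with S100A8 at 0 in every line. The 12 erythroid and megakaryocyte markers summed to 1.64 to 18.8 CPM and 9.52 to 152 CPM, the 10 NK-cell markers to 63.6 to 397 CPM and 10.9 to 258 CPM, and the 10 fibroblast and epithelial markers to 0.0548 to 9.54 CPM and 0.0412 to 15.1 CPM, in TLX libraries and in the others. Of the 8, 5, 4, 4 and 3 members tested of these 5 lists, ITGAM of the myeloid and COL1A1 of the fibroblast list had every TLX line below, and no member passed edgeR's test. The part of such cells or genes in the results above was not tested.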

How the data were processed

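The authors deposited whole-number read counts for each gene in 24 polyA RNA libraries of 6 untreated lines. Per the submitters' processing notes the tools were Trimmomatic 0.39 and STAR 2.7.11b with GRCh38; the sources used here do not give the counter, strand setting or annotation. The table lists 62754 genes, of which 62700 had a symbol, and positions come from GENCODE 29 on GRCh38. A pair of LOUCY columns carries no distinct replicate number and was used as libraries of LOUCY without one. A second deposited count table gave 4 Jurkat control libraries, normalized on their own; the other 4 columns of that table were not used.

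The members and gene lists were chosen with earlier results of these data known. Counts were summed over the 4 libraries of each line and tested with edgeR 4.0.16 in R 4.3.3 (filterByExpr, TMM, quasi-likelihood F test, Benjamini-Hochberg adjustment, threshold 0.05). SEs were derived from the log2 fold change and its F statistic. CPM use TMM factors over libraries, and gaps are on log2(CPM + 0.5). Nothing says that the replicates of a line were separate cultures, so their spread may be technical, and p-values refer to the spread between lines. Every pair of replicates differed by more than counting noise (chi-square 13.2 to 348 for each degree of freedom). Bounds against 0 take 3 counts in each library and cover counting error only. They set the mean of the active lines against the highest such floor of the silent side, so the lowest active line alone would give a lower bound.

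The genes named are TLX1, TLX3 and QKI, with further genes chosen by rule. Per direction 12 separated genes were taken, the called ones first and then those with the smallest p. The 12 separated genes with the widest gap were taken per direction as well. All of these had an ordinary symbol and an average of 1 log2 CPM or more. Up to 4 members of each of the 24 lists with the smallest p were added, of which some are left out here. CXADR, GAL3ST3, TRAC, HOXA5, JAK3, MCM2, EED, FBXW7, NUSAP1, SF1, MBNL2 and the other separated list members given were named after their values were seen. Alternatives were RLE factors, no filter, DESeq2 1.42.0 and limma-voom (limma 3.58.1), fits over libraries, serum as a term, and leaving out each line and each library. Some genes counted in the totals are not reported here. The pipeline was tested on simulated data with less spread between lines than in these data. That test does not show how often real differences would be called at the spread seen here.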

Additional observations from a re-analysis of the deposited data

Results flagged for a closer look

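In 35 of 355 groups of 4 libraries, over the 75 genes with printed values, 1 library lay far from the other 3 of its line: its gap to the nearest, as a share of the group's range, exceeded Dixon's 95% critical value. Chance alone gives about 1 in 20 such groups. The part of these libraries in the results was not tested beyond the values without them that are given.

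In the TLX lines, HPB-ALL replicate 4 was lowest in its line for SF1 at 343 CPM (the other 3 libraries 404 to 415 CPM). HPB-ALL replicate 4 was highest in its line for CCL28 at 1.8 CPM (the other 3 libraries 0.395 to 0.582 CPM), KLHL4 at 55.2 CPM (the other 3 libraries 8.54 to 12.8 CPM) and PRKCQ at 41.5 CPM (the other 3 libraries 14.4 to 15 CPM). HPB-ALL replicate 4 was highest in its line for RRM1 at 92.9 CPM (the other 3 libraries 60.1 to 62.8 CPM). DND-41 replicate 1 was lowest in its line for JAK1 at 83.5 CPM (the other 3 libraries 118 to 122 CPM), PABPC4L at 67.4 CPM (the other 3 libraries 81 to 82.2 CPM) and PRKCQ at 33.5 CPM (the other 3 libraries 44.3 to 46.3 CPM). DND-41 replicate 4 was lowest in its line for BMPR1B at 33.2 CPM (the other 3 libraries 67.8 to 71.4 CPM) and CISH at 734 CPM (the other 3 libraries 1023 to 1061 CPM). ALL-SIL replicate 1 was lowest in its line for IL2RG at 81.2 CPM (the other 3 libraries 92.2 to 93.2 CPM). ALL-SIL replicate 1 was highest in its line for FAM106A at 7.87 CPM (the other 3 libraries 7.03 to 7.17 CPM). ALL-SIL replicate 4 was lowest in its line for TLX1 at 346 CPM (the other 3 libraries 402 to 412 CPM). ALL-SIL replicate 4 was highest in its line for TRAC at 0.283 CPM (the other 3 libraries 0.0371 to 0.0548 CPM). ALL-SIL replicate 3 was highest in its line for CD1E at 5.79 CPM (the other 3 libraries 0.817 to 1.37 CPM). HPB-ALL replicate 2 was highest in its line for NECTIN2 at 0.338 CPM (the other 3 libraries 0.178 to 0.198 CPM). HPB-ALL replicate 1 was lowest in its line for UEVLD at 13.6 CPM (the other 3 libraries 19.7 to 20.8 CPM).

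In the lines without TLX, LOUCY replicate 4 was lowest in its line for CCNB1 at 60.1 CPM (the other 3 libraries 188 to 193 CPM), CCNB2 at 43.1 CPM (the other 3 libraries 140.5 to 143 CPM) and CDK1 at 109 CPM (the other 3 libraries 218 to 234 CPM). LOUCY replicate 4 was highest in its line for IFT172 at 6.47 CPM (the other 3 libraries 3.93 to 4.31 CPM), PAFAH2 at 37.6 CPM (the other 3 libraries 16.9 to 18.3 CPM) and PYCR1 at 123 CPM (the other 3 libraries 50.2 to 58.2 CPM). TALL-1 replicate 4 was lowest in its line for IDI1 at 159 CPM (the other 3 libraries 235 to 242 CPM) and MYB at 311 CPM (the other 3 libraries 550.0 to 571 CPM). TALL-1 replicate 4 was highest in its line for GPC1 at 10.4 CPM (the other 3 libraries 6.08 to 6.75 CPM), ITGB1 at 280.4 CPM (the other 3 libraries 240.1 to 243 CPM) and NECTIN2 at 22.6 CPM (the other 3 libraries 14.4 to 15.8 CPM). TALL-1 replicate 4 was highest in its line for PIM1 at 72.5 CPM (the other 3 libraries 44 to 46.2 CPM). TALL-1 replicate 3 was highest in its line for CTCF at 202 CPM (the other 3 libraries 181 to 182 CPM) and TLE4 at 35.7 CPM (the other 3 libraries 31.3 to 31.9 CPM). LOUCY replicate without a number was lowest in its line for FBXW7 at 41.4 CPM (the other 3 libraries 43.8 to 44.3 CPM) and STAT4 at 1.42 CPM (the other 3 libraries 1.68 to 1.73 CPM). KARPAS-45 replicate 3 was highest in its line for IL2RG at 6.94 CPM (the other 3 libraries 1.18 to 2.07 CPM). KARPAS-45 replicate 1 was highest in its line for LINC03015 at 9.15 CPM (the other 3 libraries 8.05 to 8.22 CPM).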

How the results depend on the processing

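The number of genes called with every line summed (0 higher and 1 lower in TLX lines) changed most with the unit of the test. DESeq2 on line sums called 171 higher and 178 lower, limma-voom 4 and 7, RLE factors 0 and 1, no filter 0 and 4, and serum as a term 0 and 0; leaving out a line gave 0 and 0, and leaving out a library 0 higher and 0 to 1 lower. With libraries as the unit and the line as a random block (within-line correlation 0.86), 150.0 were higher and 139 lower. A contrast of line terms over 24 libraries, whose spread is that between libraries of one line, called 7646 and 6241 with no replicate block; over the 22 numbered libraries it called 7359 and 6173 with the replicate block and 7297 and 6024 without. Deviations from the line means correlated at -0.196 to 0.488 between same-numbered libraries (median 0.086) and at -0.512 to 0.361 between others (median -0.0395); 12 of 22 libraries matched their own number best, and replicate 4 pairs were all positive (0.03 to 0.488). This is a hint of pairing from the data; the labels tie the numbers to nothing shared and not every pair exceeds 0.1, so the block was kept as an alternative. The counts of separated genes, 1431 above and 1192 below, were 1412 and 1213 with RLE factors, 2104 and 746 by library total, 2121 and 1498 with no filter, 224 and 257 over all 12 libraries of each side, and 69 and 60 with a 2-fold gap. They were 2196 to 3720 above and 1763 to 2858 below with a line left out, and 1366 to 1521 above and 1143 to 1310 below with a library left out. Leaving out a line can only keep or raise such counts, here and in the gene lists, since fewer line means have to be separated. Library totals moved the median gene by 0.115 on the log2 scale, against 0.013 with TMM. The 12 cell-cycle genes below became 1 over all libraries, 0 with a 2-fold gap and 12 to 20 with a line left out; the 5 tumour suppressor genes became 2, 0 and 5 to 7. The TLX1 and TLX3 levels moved by less than the spread between replicates, and among the genes refitted under each alternative HOXA5 and TRAC, whose sides overlap, changed direction. The log2 fold change of HOXA5 (-0.64) was 6.01 with limma-voom, 5.28 with the line as a random block, 5.89, 5.84 and 5.85 in the contrasts of line terms over 24 libraries, over 22 with the replicate block and over 22 without it, 0.48 with serum as a term, and -1.23 to 10.02 with a line left out. That of TRAC (1.17) was -6.65, -6.76, -6.66, -6.63, -6.66 and -9.81 in the same order, and -11.30 to 1.74 with a line left out. The cause of these changes was not tested. A count of 0 allows up to 0.0654 CPM in the library with the highest limit.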

Other observations

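Jurkat, a further T-cell leukaemia line, has 4 control libraries in the study, sequenced from total RNA in a separate table. The labels give them a non-targeting siRNA, while the columns are headed as a non-targeting shRNA, and the columns were taken to be these controls because they are the only Jurkat controls listed. The depth was 103753086 to 134209287 counts a library. They lacked both TLX genes, with TLX1 at 5 counts and TLX3 at 0 in the 4 libraries. Levels set across the tables rest on separate normalizations and on another kind of RNA preparation, so only values are given. Of the 11 genes off in TLX lines, 10 were higher in Jurkat than in the highest TLX line, which the choice of genes near 0 in TLX lines nearly fixes. Of the 11, 4 were below the lowest line without TLX. VASH2 averaged 38.0 ± 3.55 CPM, PYCR1 58.3 ± 11.998 CPM, ACAA2 58.7 ± 6.31 CPM and CXADR 27.5 ± 2.90 CPM in Jurkat (SD, n = 4 libraries), and the one exception, the receptor segment TRBV20-1, had 2 counts. GAL3ST3 counts among the 10 on 3 counts in the 4 libraries, no more than the floor of a single library.

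Of the 8 genes on in TLX lines, 2 were lower in Jurkat than in the lowest TLX line, and 7 were higher than in the highest line without TLX, which lay near 0 by choice. PABPC4L had no count in Jurkat, and PRDM8 averaged 1.90 ± 0.729 CPM. BMAL1 averaged 46.7 ± 1.67 CPM and STX7 73.4 ± 6.70 CPM in Jurkat, each above the highest TLX line. Of the 1431 genes with every TLX line above, Jurkat was below the lowest TLX line in 842 (58.8%, against 31% of all genes tested). In 756 Jurkat was above the highest line without TLX, against 6165 of all 20040 genes tested. Of the 1192 genes with every TLX line below, Jurkat was above the highest TLX line in 853 (71.6%, against 37.1% of all genes tested). In 474 Jurkat was below the lowest line without TLX, against 4363 of all 20040. These classes overlap where Jurkat lay between the sides. Choosing genes by where the TLX lines lie raises such shares for any further line. The shares therefore do not place Jurkat with either side.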
